A study of Rattus norvegicus with 8 samples.

Results

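Gene expression in the intestinal epithelium of rats that drank DSW1200, deep-sea water with a hardness of 1200 ppm, was compared with that of rats that drank tap water (TW), each for 3 days. The comparison uses 4 of the 8 Affymetrix Rat Genome 230 2.0 arrays of the study, 2 for DSW1200 and 2 for TW. It covers every gene with a probe set of its own: 20826 of 31099 probe sets carry 1 gene symbol and stand for 14217 genes, of which 9258 were bright enough to be tested. All rats were Wistar rats of 4 months by the labels and female by the study's methods, and no mutation or drug is named for any group. The other 4 arrays, from rats under water restriction for 12 h (WR) and rats given selenium water for 3 days (SeW), entered the estimate of the spread and are used where they show whether DSW1200 or TW stood apart.

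By the study's methods DSW1200 was made from deep-sea water by reverse osmosis and electrodialysis. It held far more magnesium, sodium and potassium than TW, more calcium, a slightly higher pH and a trace of selenium, so the parts these minerals play cannot be told apart here. The cells were shaken loose from proximal segments after incubation with dithiothreitol and EDTA, which frees epithelium and leaves most of the wall behind. Neither source says whether the arrays of a group came from separate rats or from pools. A p-value therefore measures the spread between these arrays, which may be technical, and with 2 arrays against 2 the smallest two-sided exact permutation p for a single value is 0.333.

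The proximal small intestine takes up most of the minerals, sugars, amino acids and vitamins of the diet through enterocytes, short-lived columnar cells that are renewed from dividing cells in the crypts. DSW1200 held far more magnesium than TW, though less magnesium than sodium. Magnesium crosses this layer between the cells and through channels of the TRPM family, and leaves the cells through CNNM proteins. The same epithelium neutralises gastric acid with bicarbonate, makes some glucose and ketone bodies of its own, and shelters lymphocytes, which come off with it when it is loosened.

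Levels are given as normalized signal, the MAS5 intensity of a probe set after quantile normalization over the 8 arrays, always with the 2 arrays of a group in the order replicate 1 and replicate 2. Changes are log2 differences between the DSW1200 mean and the TW mean, so that 1 means a 2-fold higher signal in DSW1200, and adjusted p-values come from limma with Benjamini-Hochberg adjustment over the 9258 tested genes. Signals of different probe sets are not on 1 scale, and only the same probe set is compared between groups.

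Markers of the labelled tissue were present on all 4 arrays. The signal of *Vil1*, the microvillus protein villin, was 3076 and 2700.3 in TW and 3275 and 3186 in DSW1200. *Fabp2*, the fatty acid binding protein of enterocytes, gave 5378 and 6297 in TW and 5557 and 5321 in DSW1200. *Pdx1*, a transcription factor of the duodenum and pancreas, gave 395 and 356 in TW and 440.2 and 444 in DSW1200, while the ileal bile acid binding protein gene *Fabp6* was below the level tested on every array. Of the cells that a loosened fraction can carry, T lymphocyte markers were summed over 28 genes, *Gzma* among them. The sums ranged from 609 to 737 in TW and from 776 to 915 in DSW1200. Fibroblast and matrix markers, summed over 31 genes, lay at 879 and 535 in TW and 627 and 932 in DSW1200. Pancreatic acinar markers, summed over 23 genes, lay at 5356 and 6098 in TW and 8529 and 4534 in DSW1200, so that the groups overlapped. Of these 10 were tested, among them *Zg16*, which goblet cells also make, at 2971 and 3586 in TW and 2863 and 2846 in DSW1200, while the defining enzymes *Amy2a3* and *Cpa1* were below the level tested. In such bulk samples fewer cells of a type and less RNA per cell cannot be told apart.

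TW replicate 2 stood apart from the other arrays. Its correlation with TW replicate 1 over the tested genes was 0.946, and its correlations with the 6 arrays of the other groups ran from 0.936 to 0.944, while TW replicate 1 correlated with those 6 at 0.952 to 0.968. Before normalization its median signal was 4.3, against 8.4 in TW replicate 1 and 6.1 and 7.0 in DSW1200. The ratio of 3' to 5' beta-actin signal, a sign of degraded RNA or short copies when high, was 24.1 and 20.6 in TW and 32.8 and 27.1 in DSW1200, so it was higher on both DSW1200 arrays. The same ratio for GAPDH overlapped, at 2.66 and 3.08 in TW and 3.86 and 3.00 in DSW1200. The part of the beta-actin ratio in the differences below was not tested beyond a fit with the ratio as a covariate.

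Fewer genes were 2-fold apart between the group means than between the replicates of either group. TW replicates 1 and 2 differed at least 2-fold in 961 genes (10.4%) and the DSW1200 replicates in 783 (8.46%), whereas the DSW1200 mean and the TW mean differed so in 394 (4.26%), as the plot of 2-fold shares shows. A mean of 2 arrays varies less than 1 array, so the shares are descriptions and not a test. Against the single TW arrays, DSW1200 replicate 1 was 2-fold apart from TW replicate 1 in 813 genes and from TW replicate 2 in 1166, and DSW1200 replicate 2 in 564 and 1023. The DSW1200 mean was 2-fold apart from the WR mean in 306 genes (3.31%) and from the SeW mean in 574 (6.20%).

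**Figure D1:**
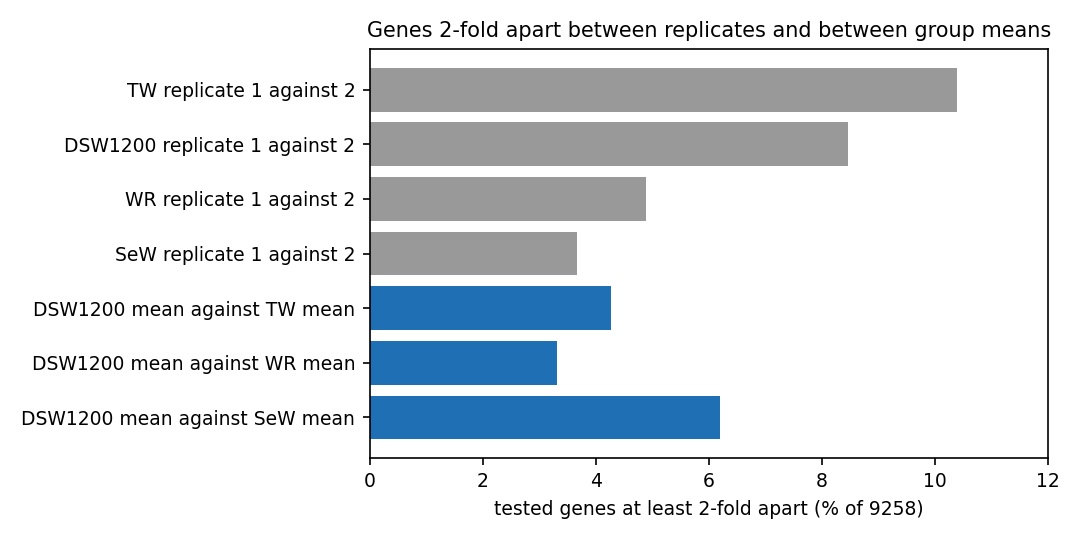
Share of the 9258 tested genes (percent, horizontal axis) at least 2-fold apart between the 2 arrays of each group (grey bars) and between the DSW1200 mean and the mean of each other group (blue bars). The TW replicates differed 2-fold in 10.4% of genes and the DSW1200 and TW means in 4.26%.

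By limma no gene passed an adjusted p of 0.05 between DSW1200 and TW, in either direction (0% of 9258), and the smallest adjusted p was 0.211, for *Slc23a2*. At an unadjusted p under 0.05, 395 genes were higher in DSW1200 (4.27%) and 338 lower (3.65%). Both DSW1200 arrays lay above both TW arrays in 1541 genes (16.6%) and below both in 1781 (19.2%), and these non-overlapping genes were at least 2-fold apart in 167 cases above (1.8%) and 101 below (1.09%). Standard errors of the log2 changes had a median of 0.26, and the 95% interval of the median gene reached 0.59 to either side before any adjustment, and even the -1.63 of *Slc23a2*, at an SE of 0.22, did not pass after it. Of the 268 genes 2-fold apart without overlap, 206 fell in the dimmest of 5 equal classes of signal, up to a mean signal of 15.6, where the TW replicates themselves were 2-fold apart in 29.9% of genes.

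**Figure D2:**
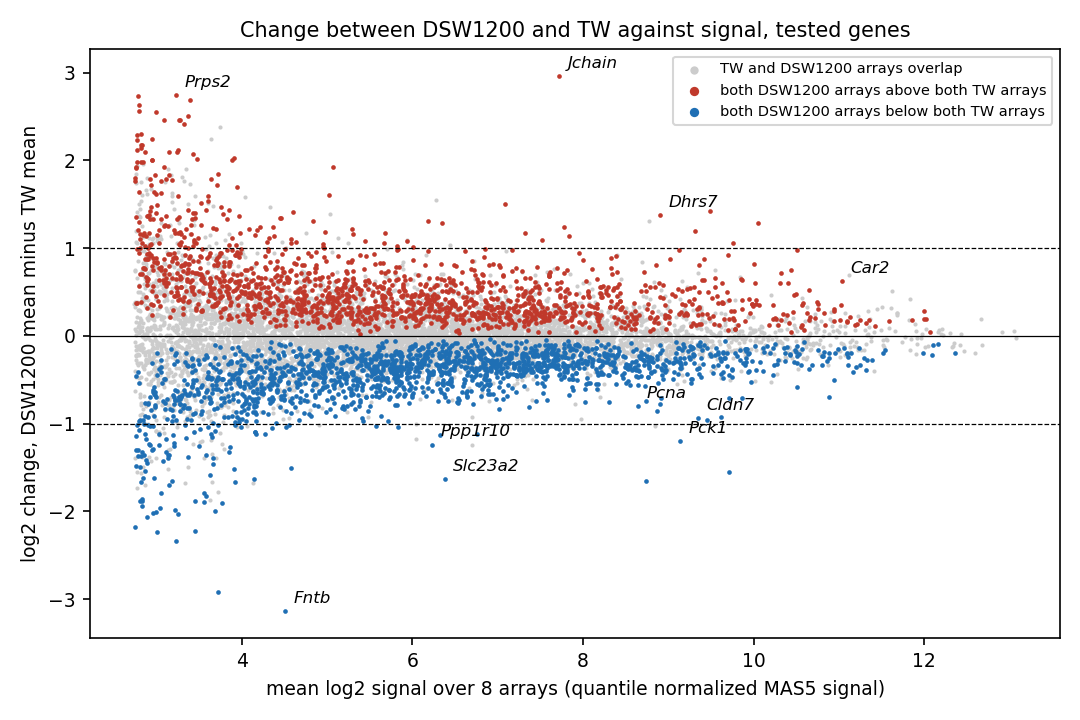
Log2 change (DSW1200 mean minus TW mean, vertical axis) against mean log2 signal over 8 arrays (horizontal axis), 1 point per tested gene. Red points are the 1541 genes with both DSW1200 arrays above both TW arrays and blue points the 1781 with both below, grey points overlap, and dashed lines mark 2-fold. The spread widens towards the left, and *Slc23a2*, *Pck1* and *Dhrs7* lie outside 2-fold at higher signal.

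The 2 genes that separated DSW1200 most clearly from the rest of the study were *Slc23a2*, which encodes a sodium-dependent vitamin C transporter, and *Pck1*, the cytosolic phosphoenolpyruvate carboxykinase that commits oxaloacetate to glucose synthesis. The signal of *Slc23a2* was 36.3 and 34.8 in DSW1200 and 114 and 107 in TW, against 48 and 71.3 in WR and 206 and 213 in SeW. That of *Pck1* was 134 and 269.7 in DSW1200 and 485 and 393 in TW, against 1109 and 966 in WR and 1155 and 1222 in SeW. For both genes the 2 DSW1200 arrays were the lowest of all 8. Against TW alone the log2 change of *Slc23a2* was -1.63 (95% interval -2.12 to -1.15, adjusted p 0.211 by limma) and that of *Pck1* -1.20 (-1.82 to -0.58, adjusted p 0.605). Without TW replicate 2 these changes were -1.68 and -1.35, and without TW replicate 1 -1.58 and -1.05.

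Tested against the mean of TW, WR and SeW together, DSW1200 differed in 2 genes, both lower (0.0216% of 9258, with 0% higher): *Pck1* by -2.10 and *Slc23a2* by -1.64 on the log2 scale, each with an adjusted p of 0.0175 by limma. No gene passed with no filter on low values, with probe sets averaged, without the intensity trend or with the beta-actin ratio as a covariate. The contrast also depended on single arrays, with between 0 and 7 genes past the threshold on leaving out one: no gene passed it without WR replicate 2, SeW replicate 1 or SeW replicate 2, *Slc23a2* alone passed without WR replicate 1, and *Slc23a2* fell out without DSW1200 replicate 1 or 2. Against SeW alone, 136 genes were higher (1.47%) and 116 lower (1.25%) in DSW1200 at an adjusted p of 0.05, with *Slc23a2* (adjusted p 0.00191) and *Pck1* (0.00536) among the lower. On the values as deposited this contrast gave 7 higher and 3731 lower genes, without the intensity trend 1 and 0, and with the beta-actin ratio as a covariate 0 and 0, so neither its size nor its split was stable. Against WR none passed (0% either way), where *Pck1* had the smallest adjusted p of 0.0534. These contrasts share the DSW1200 arrays with the comparison with TW and are no independent check of it. A second, dim probe set of *Slc23a2* gave 3.31 and 1.08 in TW and 4.46 and 5.69 in DSW1200, below the level tested and in the opposite direction, so the call on *Slc23a2* is that of its brighter probe set.

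The bases before the start sites of *Pck1* and *Slc23a2* are shown because these are the only genes with a call for DSW1200 against the other groups. Each run is 250 bases long, on the strand of the gene and read 5′ to 3′ up to the base before the start, from RefSeq on GRCr8. Capitals mark matches, on either strand, to the cAMP response element half-site CGTCA, the GC box GGGCGG and the TATA box TATAAA.
Pck1, chr3:182348322-182348571, plus strand: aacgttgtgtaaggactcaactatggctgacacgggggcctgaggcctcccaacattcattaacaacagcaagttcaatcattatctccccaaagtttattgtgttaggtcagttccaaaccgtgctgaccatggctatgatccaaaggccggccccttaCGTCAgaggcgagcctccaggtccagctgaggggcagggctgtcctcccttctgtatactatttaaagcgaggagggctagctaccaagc
Slc23a2, chr3:139847344-139847593, minus strand: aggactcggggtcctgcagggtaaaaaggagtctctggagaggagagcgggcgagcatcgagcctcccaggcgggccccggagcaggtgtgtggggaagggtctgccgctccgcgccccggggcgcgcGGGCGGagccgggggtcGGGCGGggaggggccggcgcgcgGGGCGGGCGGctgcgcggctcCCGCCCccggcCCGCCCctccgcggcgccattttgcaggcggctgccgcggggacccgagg
The *Pck1* run holds 1 half-site, which begins 90 bases before the start, and neither of the other motifs, and 52.0% of its bases are G or C. The *Slc23a2* run holds 6 GC box matches, of which 2 overlap each other, and neither of the other motifs, and 79.6% of its bases are G or C. Among 33469 RefSeq promoters of the same length 18.2% hold the half-site, 30.5% the GC box and 12.9% the TATA box, and the median share of G and C is 51.2%. A match describes the letters and says nothing of a bound factor.

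Since most 2-fold differences lay among dim genes, the 3703 genes with a mean signal of 79.3 or more were looked at by themselves, a limit chosen after the values had been seen. In these, 18 genes were 2-fold apart without overlap, 12 higher and 6 lower in DSW1200. Besides *Pck1* and *Slc23a2*, the lower genes included *Retsat*, retinol saturase, at 1959 and 1898 in TW and 456 and 952 in DSW1200, although WR (932 and 351) and SeW (975 and 479) lay as low. *Ephx2*, the soluble epoxide hydrolase, gave 699 and 616 in TW and 589.9 and 73.2 in DSW1200, so that DSW1200 replicate 2 alone stood low. *Rasl11b*, a Ras-like GTPase, gave 106 and 149.6 in TW and 72.2 and 45.9 in DSW1200 and *Flcn*, the tumour suppressor folliculin, 153 and 161 in TW and 48.5 and 107 in DSW1200, each with both DSW1200 arrays below both TW arrays.

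Of the 12 brighter genes with higher signal in DSW1200, *Dhrs7*, a short-chain dehydrogenase, had the smallest p of the whole comparison among higher genes: 305 and 251 in TW and 797 and 644 in DSW1200 (log2 change 1.37, SE 0.20, adjusted p 0.234). *Ccdc71*, a coiled-coil protein gene, gave 41.5 and 51.0 in TW and 115 and 109.5 in DSW1200 (log2 change 1.29, SE 0.22, adjusted p 0.356), with WR at 109 and 88.6 and SeW at 101 and 76.5, so that TW was the group apart. *Maf*, a leucine zipper transcription factor, showed the same order with 708 and 347 in TW and 965 and 1110.4 in DSW1200, 1234 and 886 in WR and 1069.9 and 1005 in SeW. A second tested probe set of *Maf* lay the other way, at 181 and 177 in TW and 139.6 and 142 in DSW1200. That of *Ccdc71* overlapped, at 20.4 and 16.8 in TW and 29.2 and 20.0 in DSW1200 (log2 change 0.38).

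For several of these genes the difference lay mostly in TW replicate 2. *Ddx60*, an antiviral helicase, gave 966 and 160.4 in TW and 1144 and 971 in DSW1200. *Serinc1*, a membrane protein that aids serine incorporation, gave 630.2 and 145 in TW and 705 and 676 in DSW1200, and *Mapk1ip1l* 236 and 80.1 in TW and 294 and 312 in DSW1200. In all 3 TW replicate 1 lay just below the DSW1200 arrays and TW replicate 2 far below, and all 3 are among the 124 genes that passed as higher when TW replicate 1 was left out. *Jchain*, the joining chain of secreted IgA and IgM made by plasma cells, had the largest change above TW, 2.96, from 397 and 9.81 in TW and 464 and 512 in DSW1200, and SeW replicate 1 was low as well (25.7 and 559.8 in SeW). *Lap3*, leucine aminopeptidase, gave 806 and 312 in TW and 1762 and 849 in DSW1200, where TW replicate 1 lay just under DSW1200 replicate 2 and TW replicate 2 far below.

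The remaining brighter genes above TW had less uneven TW arrays. *Dyrk2*, a kinase, gave 177 and 96.8 in TW and 397 and 241 in DSW1200, *Sowahc*, an ankyrin repeat protein, 95.1 and 114 in TW and 309 and 179.9 in DSW1200, and *Bco1*, which cleaves beta-carotene to vitamin A aldehyde, 184 and 92.1 in TW and 370.2 and 209.5 in DSW1200. With the beta-actin ratio as a covariate the change of *Bco1* turned to -0.28. *Defa24*, an antimicrobial defensin of Paneth cells, gave 31 and 51.6 in TW and 134 and 96.0 in DSW1200 and was higher still in WR (367 and 502) and SeW (225 and 137).

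Beside the other groups, TW was most often the outermost group among the genes higher in DSW1200, and DSW1200 among those lower. Of the 167 genes 2-fold higher without overlap, TW had the lowest of the 4 group means in 156 and DSW1200 the highest in 93, and WR and SeW both lay nearer to DSW1200 than to TW in 120. TW replicate 2 was the lower of the TW arrays in 119. For the 101 genes 2-fold lower, DSW1200 had the lowest group mean in 92 and TW the highest in 74, WR and SeW both lay nearer to TW in 57, and TW replicate 2 was the higher TW array in 53. The rule that chose these genes used DSW1200 and TW, so these are descriptions.

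Further genes below TW were named for their small p. *Ppp1r10*, a nuclear regulator of protein phosphatase 1, gave 96.6 and 109 in TW and 46.4 and 40.7 in DSW1200 (log2 change -1.24, SE 0.21, adjusted p 0.356). *Id1*, an inhibitor of basic helix-loop-helix factors, gave 679.6 and 650.5 in TW and 376 and 359.8 in DSW1200 (log2 change -0.85, SE 0.16, adjusted p 0.474). *Relb*, a subunit of NF-kappaB, gave 70.0 and 86.0 in TW and 39.9 and 36.4 in DSW1200 (log2 change -1.02, SE 0.22, adjusted p 0.504), and WR and SeW lay as low, between 37.9 and 51.2. *Cldn7*, a claudin of the basolateral side, gave 815 and 931 in TW and 459 and 451 in DSW1200 (log2 change -0.94, SE 0.21, adjusted p 0.504), with WR as low (352 and 541) and SeW as high as TW (1163 and 958). *Txnip*, which binds thioredoxin and restrains glucose uptake, gave 488 and 472 in TW and 261 and 302 in DSW1200 (log2 change -0.77, SE 0.22, adjusted p 0.617), and both DSW1200 arrays were the lowest of all 8. By PCR array, another assay, the study listed *Txnip* the other way, as higher in DSW1200 than in TW.

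Among genes above TW, *Gbp7*, an interferon-induced GTPase, gave 23.1 and 19.4 in TW and 47.5 and 48.6 in DSW1200 (log2 change 1.18, SE 0.23, adjusted p 0.474) and *Gzma*, granzyme A of cytotoxic lymphocytes, 76.4 and 104 in TW and 189 and 164 in DSW1200 (log2 change 0.99, SE 0.21, adjusted p 0.504). Both were also above SeW, with adjusted p 0.0453 and 0.0204 by limma. With the beta-actin ratio, which was only 13.6 and 10.9 in SeW, as a covariate no gene passed against SeW. Both genes were about level with WR (42.3 and 39.8 for *Gbp7* and 166 and 146 for *Gzma*). The summed signal of the T lymphocyte markers, given above, includes *Gzma* itself. The higher sums on both DSW1200 arrays are therefore not separate from that gene, and the part of lymphocyte content was not tested. *Crem*, a modulator of cAMP-responsive genes, gave 18.5 and 25.8 in TW and 97 and 45.9 in DSW1200 (log2 change 1.61, SE 0.36, adjusted p 0.559). *Prps2*, which makes the ribose donor for nucleotides, gave 1.56 and 2.54 in TW and 15.9 and 11.2 in DSW1200, while all WR and SeW arrays lay between 11.4 and 20.9. The signals of 12 of these genes on every array are shown in the plot of gene signals.

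**Figure D3:**
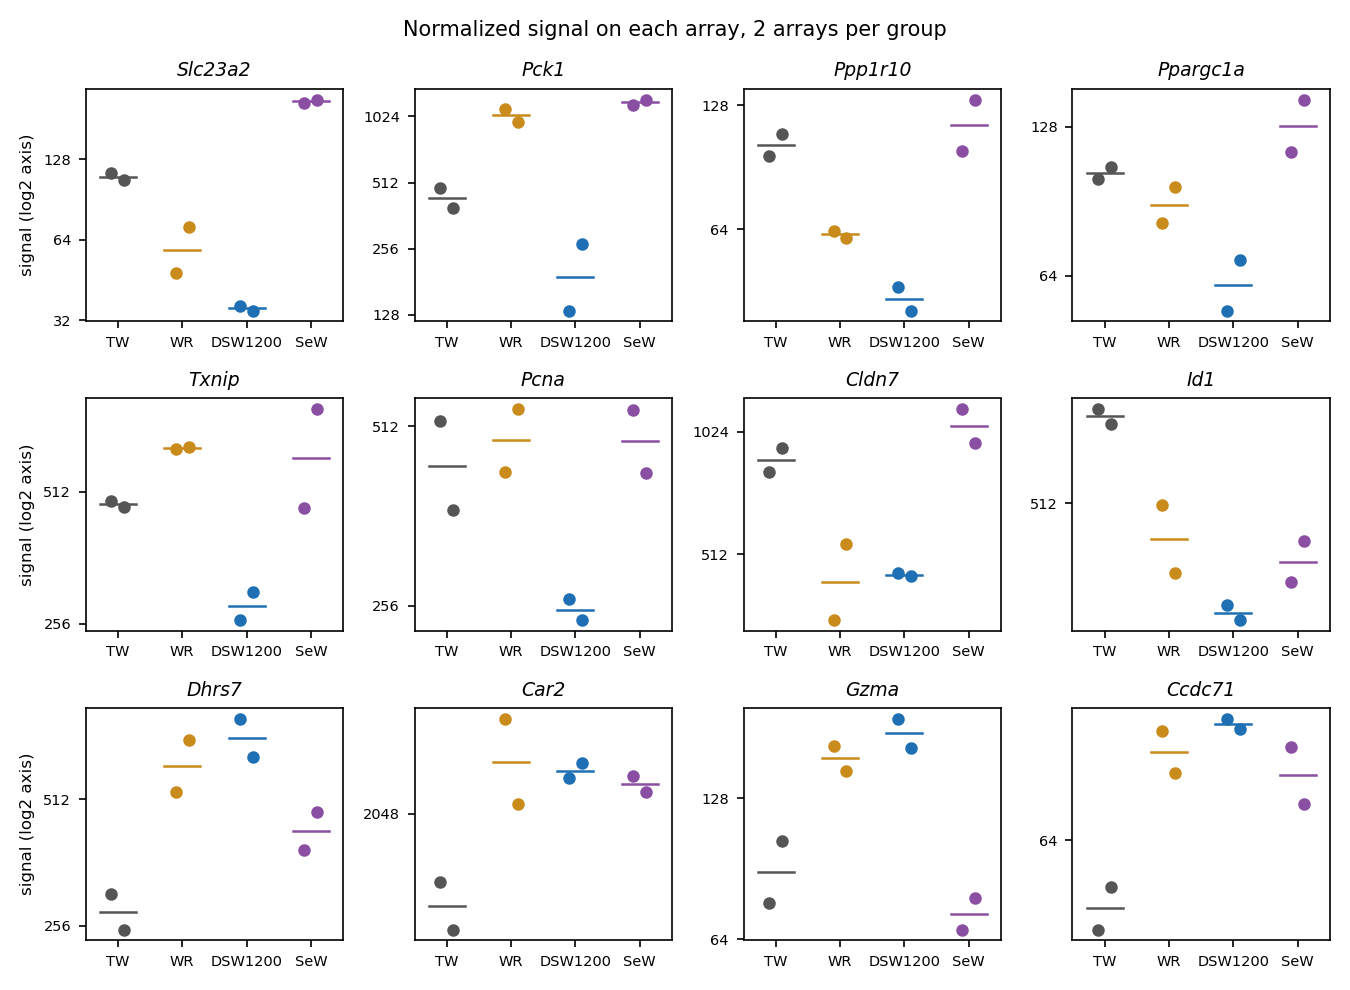
Normalized signal (vertical log2 axis, scaled for each gene) of 12 genes on each array, with 2 points per group and a bar at their mean on the log2 scale, for TW (grey), WR (amber), DSW1200 (blue) and SeW (violet). The DSW1200 arrays are the lowest of all 8 for *Slc23a2*, *Pck1*, *Ppp1r10*, *Ppargc1a*, *Txnip*, *Pcna* and *Id1*, whereas for *Dhrs7*, *Car2* and *Ccdc71* the TW arrays are the lowest.

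Apart from *Jchain*, the largest changes belonged to dim genes. *Fntb*, a farnesyltransferase subunit, lay lowest with -3.14, from 39.7 and 109 in TW and 6.74 and 8.30 in DSW1200, and WR replicate 2 and SeW replicate 1 were nearly as low (79.6 and 10.7 in WR, 10.4 and 32.7 in SeW). The probe set annotated to the *Mir29c* gene, which does not measure the mature microRNA, gave 32 and 30.4 in TW and 1.26 and 13.4 in DSW1200, and DSW1200 replicate 1 alone was far below. *Ap5s1*, a subunit of an endosomal adaptor, was low on both DSW1200 arrays, at 11.8 and 19.0 in TW and 3.17 and 2.77 in DSW1200. Besides these, 7 of the 10 largest changes below TW lay between -2.24 and -2.01, and apart from *Jchain* and *Prps2* the 8 other largest changes above TW between 2.46 and 2.74, none with an adjusted p under 0.617.

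Lists of genes were then read for the functions that the water could touch. No member of any of the 53 lists passed an adjusted p of 0.05, so each list is described by its median and by the members without overlap, beside the medians and shares of all genes: median -0.021, 16.6% above and 19.2% below. Counts of members with the lower or higher mean are to be read beside all genes, of which 52.4% had the lower mean in DSW1200 and 47.6% the higher. The lists were set with earlier results of these data known.

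Genes of magnesium handling lay on both sides of TW. Of 22 listed, 12 were tested, with a median change of -0.064, 2 members above without overlap (16.7%) and 4 below (33.3%). *Trpm7*, the channel kinase, gave 74.3 and 28.3 in TW and 55.8 and 65.6 in DSW1200, and TW replicate 2 was the lowest array. *Cnnm4*, the basolateral magnesium exit protein, gave 109 and 121 in TW and 140.2 and 118 in DSW1200, a log2 change of 0.17 with a 95% interval of -0.23 to 0.56. *Slc41a2*, a magnesium carrier, gave 292 and 344 in TW and 564 and 353 in DSW1200 (log2 change 0.49, SE 0.25, adjusted p 0.617), and *Mrs2*, the mitochondrial magnesium channel, 46.2 and 57.4 in TW and 21.6 and 44.8 in DSW1200 (log2 change -0.73, SE 0.33, adjusted p 0.617), though its change was 0.29 with its probe sets averaged. The other probe set of *Mrs2* in that average was below the level tested, at 0.575 and 9 in TW and 9.25 and 6 in DSW1200. A second tested probe set of *Slc41a2* overlapped, with a log2 change of 0.037. *Trpm6* was not analysed here, and *Slc41a1* was below the level tested.

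Calcium absorption genes mostly overlapped between the groups. *S100g*, the calcium shuttle calbindin-D9k, gave 9066 and 8756 in TW and 8414 and 9066 in DSW1200, near the top of the arrays' range. *Trpv6*, the apical calcium channel, gave 394 and 523 in TW and 571 and 468 in DSW1200 with overlapping groups. *Atp2b1*, the basolateral calcium pump, had a log2 change of 0.040 with a 95% interval of -0.25 to 0.33. The 10 tested members had a median of 0.11, 2 above and 1 below without overlap. Their changes ran from -0.49 to 1.37, and 1 member was 2-fold higher without overlap and 0 were 2-fold lower.

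Of 31 tested genes of sodium, chloride and bicarbonate transport, 5 lay above and 7 below TW without overlap, with a median of -0.017. *Car2*, the carbonic anhydrase that supplies bicarbonate and protons, gave 1646 and 1413 in TW and 2293 and 2406 in DSW1200 (log2 change 0.62, SE 0.16, adjusted p 0.617), but WR (2777 and 2109) and SeW (2308 and 2198) were as high, and the log2 change of its second probe set was 0.096. *Slc26a3*, the apical chloride-bicarbonate exchanger, gave 1331 and 723 in TW and 1654 and 1654 in DSW1200 (log2 change 0.75, SE 0.30, adjusted p 0.617), with the higher TW array not far below. *Slc26a6*, a related exchanger, lay the other way at 1411 and 1552 in TW and 1125 and 1318 in DSW1200 (log2 change -0.28, SE 0.14, adjusted p 0.617). *Slc9a3*, the apical sodium-proton exchanger, gave 346 and 301 in TW and 585 and 290.1 in DSW1200, and DSW1200 replicate 1 was the highest of all 8 arrays.

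Water channels and osmotic genes were mixed. *Aqp3*, a basolateral aquaporin, gave 104 and 110.1 in TW and 196 and 124 in DSW1200 (log2 change 0.54, SE 0.26, adjusted p 0.617), both above TW, and it was higher again in SeW (500.2 and 328). The 6 tested aquaporins had a median of 0.29, which was -0.026 without TW replicate 2. *Nfat5*, the transcription factor of the hypertonic response, gave 381 and 202 in TW and 380.1 and 296 in DSW1200, with overlap, and a second tested probe set had a log2 change of -0.76. Of the 16 tested osmotic genes 2 were above and 2 below, and *Stk39*, a kinase that activates ion cotransporters, gave 19.4 and 11.1 in TW and 28.5 and 29.9 in DSW1200 (log2 change 0.99, SE 0.35, adjusted p 0.617), while its partner kinase *Oxsr1* gave 128 and 118 in TW and 96.1 and 92.8 in DSW1200 (log2 change -0.38, SE 0.17, adjusted p 0.617).

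Iron, zinc and copper genes lay on both sides of TW, with few far from it. *Cybrd1*, the apical ferric reductase, gave 1394 and 2085 in TW and 999 and 1299 in DSW1200 (log2 change -0.58, SE 0.21, adjusted p 0.617), both DSW1200 arrays being lower, whereas the iron importer *Slc11a2* (2096 and 3821 in TW and 2962 and 1549 in DSW1200) and the exporter *Slc40a1* (3242 and 4204 in TW and 3569.6 and 3733 in DSW1200) overlapped. A second tested probe set of *Slc11a2* did not overlap, at 205 and 284 in TW and 179 and 124 in DSW1200 (log2 change -0.69). Among 15 tested iron genes 0 lay above and 3 below without overlap (median -0.016). Among 21 tested zinc and copper genes 4 lay above and 5 below (median -0.068), and *Ccs*, the copper chaperone of superoxide dismutase, gave 338 and 432 in TW and 257 and 264 in DSW1200 (log2 change -0.55, SE 0.17, adjusted p 0.617), with WR and SeW as low, between 255 and 268. For phosphate and sulfate, 1 of 5 tested genes lay above and 2 below, and for potassium 0 of 6.

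Genes of enterocyte absorption lay on both sides of TW, brush border genes more often below. Of 21 tested brush border genes 3 lay above and 8 below (38.1%) without overlap, with a median of -0.070, or 0.016 with the beta-actin ratio as a covariate. *Cdhr2*, an adhesion protein of microvilli, gave 2846 and 3323 in TW and 2223 and 2485 in DSW1200 (log2 change -0.39, SE 0.15, adjusted p 0.617) and *Anpep*, aminopeptidase N, 4592 and 4313 in TW and 4005 and 4271 in DSW1200 (log2 change -0.11, SE 0.12, adjusted p 0.787). *Slc15a1*, the peptide transporter, lay above TW with 668 and 1166 in TW and 1426 and 1253 in DSW1200 (log2 change 0.60, SE 0.24, adjusted p 0.617), and WR and SeW were both higher than TW too, between 1246 and 2011. *Slc5a1*, the sodium-glucose cotransporter, gave 129 and 236 in TW and 131 and 126 in DSW1200, and *Slc16a10*, an aromatic amino acid carrier, 71.6 and 56.5 in TW and 171 and 90.7 in DSW1200 (log2 change 0.97, SE 0.34, adjusted p 0.617). The 20 tested carriers of sugars, peptides and amino acids had a median of 0.012, with 4 above and 1 below.

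Vitamin carriers included opposite values of the vitamin C pair. *Slc23a1*, the apical vitamin C transporter, gave 44.8 and 57.8 in TW and 72.9 and 69.5 in DSW1200 (log2 change 0.48, SE 0.20, adjusted p 0.617), above TW, while *Slc23a2* was below. *Tcn2*, which carries vitamin B12 in the blood, gave 649.9 and 492 in TW and 406 and 435 in DSW1200 (log2 change -0.43, SE 0.18, adjusted p 0.617). The 22 tested vitamin genes had a median of -0.030, 3 above and 5 below. Of 25 tested genes of fat absorption 1 lay above and 4 below (median -0.075), and *Apoa1* and *Apoa4*, apolipoproteins of chylomicrons, had log2 changes of -0.17 and -0.19. For bile acids it was 1 above and 2 below among 6.

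Genes of fuel metabolism lay more often below TW than above. In fatty acid oxidation and ketogenesis 19 of 26 tested genes had the lower mean in DSW1200, against 52.4% of all genes. Without overlap 12 lay below (46.2%, against 19.2% of all genes) and 1 above, and the median was -0.11. With the beta-actin ratio, which was higher in DSW1200, as a covariate the median was 0.038, and it was -0.23 without TW replicate 1, -0.22 without DSW1200 replicate 2 and -0.065 without DSW1200 replicate 1. *Ppargc1a*, the coactivator of mitochondrial genes, gave 100.4 and 106 in TW and 54.4 and 68.8 in DSW1200 (log2 change -0.75, SE 0.21, adjusted p 0.617), and the log2 changes of its 2 other probe sets were -0.70 and -0.72. *Pdk4*, the kinase that shuts pyruvate out of the mitochondrion in fasting, gave 387 and 764 in TW and 335 and 331 in DSW1200 (log2 change -0.71, SE 0.28, adjusted p 0.617), although a second tested probe set lay above TW by 0.55, and *Bdh1*, of ketone body formation, 171 and 179 in TW and 61.4 and 156 in DSW1200 (log2 change -0.84, SE 0.36, adjusted p 0.617), with DSW1200 replicate 2 close to TW. *Cpt1a*, the gate of mitochondrial fatty acid entry, overlapped at 675 and 681 in TW and 709 and 612 in DSW1200. Its second tested probe set did not, at 21.4 and 21.1 in TW and 15.9 and 14.4 in DSW1200 (log2 change -0.49).

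Around glucose, 16 of 26 tested genes of gluconeogenesis and glycolysis had the lower mean, against 52.4% of all genes. Without overlap 6 lay below (23.1%, near the 19.2% of all genes) and 2 above. The median was -0.15, or -0.033 without DSW1200 replicate 1, -0.24 without TW replicate 1 and -0.075 with the beta-actin covariate. Single changes ran from -1.38 to 1.38, with 2 members at least 2-fold higher and 2 at least 2-fold lower. Besides *Pck1*, *Gpi*, the glucose phosphate isomerase, gave 794 and 947 in TW and 504 and 783 in DSW1200 (log2 change -0.47, SE 0.21, adjusted p 0.617) and *Fbp2*, a fructose bisphosphatase, 414 and 517 in TW and 291 and 383 in DSW1200 (log2 change -0.47, SE 0.19, adjusted p 0.617). In the glucocorticoid-induced list 11 of 16 had the lower mean, but 2 lay above and 2 below without overlap (12.5% each), with a median of -0.19, which was 0.084 without DSW1200 replicate 2 and 0.019 without TW replicate 2. *Klf15*, a factor that acts with the glucocorticoid receptor on amino acid and glucose genes, gave 25.7 and 31.1 in TW and 19.4 and 18.0 in DSW1200 (log2 change -0.60, SE 0.29, adjusted p 0.617), and *Tsc22d3*, a direct receptor target, overlapped at 789 and 526 in TW and 454 and 688 in DSW1200. The core clock gene *Nr1d1* gave 13.0 and 5.76 in TW and 1.26 and 5.90 in DSW1200 with overlap, against 53.0 and 80.5 in SeW, and of 15 tested clock genes 3 lay above and 1 below.

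Cholesterol synthesis split by replicate. The 20 tested genes had a median of -0.18, with 16 lower, but the median was 0.44 without DSW1200 replicate 1 and -0.73 without DSW1200 replicate 2. *Sqle*, squalene epoxidase, shows it with 160.3 and 232 in TW and 93.4 and 295 in DSW1200, and so does *Insig1*, a sterol sensor partner, with 922 and 1100.4 in TW and 509.7 and 1445 in DSW1200. DSW1200 replicate 1 was below both TW arrays and replicate 2 above both in each.

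Respiratory chain subunits lay slightly lower. Of 66 tested, 49 had a lower mean in DSW1200, 18 without overlap (27.3%) against 4 above (6.06%), with a median of -0.10. The median was -0.054 against TW replicate 1 and -0.20 against TW replicate 2, -0.20 and -0.054 without TW replicate 1 and 2, -0.049 without DSW1200 replicate 1, -0.045 on the values as deposited and -0.011 with the beta-actin ratio as a covariate. *Cox4i1*, a subunit of cytochrome c oxidase, gave 2406 and 3113 in TW and 2214 and 2085 in DSW1200 (log2 change -0.35, SE 0.15, adjusted p 0.617) and *Atp5f1a*, a subunit of ATP synthase, 1749 and 2096 in TW and 1479 and 1559.7 in DSW1200 (log2 change -0.33, SE 0.14, adjusted p 0.617). Cytosolic ribosomal protein genes, another large set of bright housekeeping genes, had a median of 0.012, with 11 of 39 above (28.2%) and 7 below (17.9%). Proteasome subunits had -0.042, with 5 of 36 above and 12 below (33.3%), among them *Psmb5*, a catalytic subunit, at 377 and 510.3 in TW and 304 and 328 in DSW1200. Clathrin and adaptor genes had 3 of 22 above and 8 below.

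**Figure D4:**
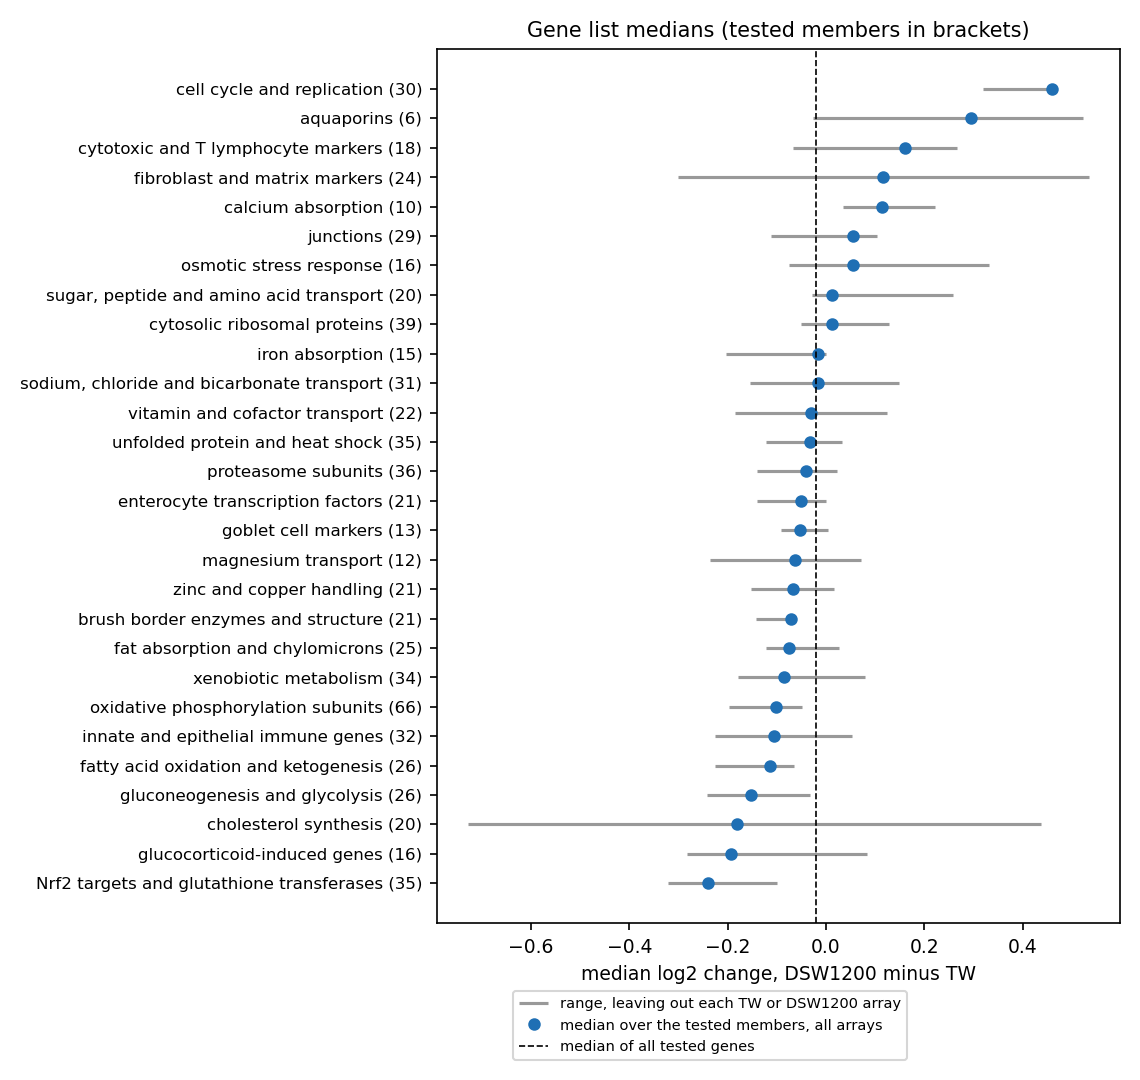
Median log2 change (DSW1200 minus TW, horizontal axis) of 28 gene lists, with the number of tested members in brackets. Blue points use all arrays, grey lines span the medians obtained on leaving out each TW or DSW1200 array, and the dashed line is the median of all tested genes, -0.021. The cell cycle list lies highest at 0.46 and the cholesterol synthesis list has the widest span, from -0.73 to 0.44.

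Detoxification lists differed in where their members lay. Of 35 tested Nrf2 targets and glutathione transferases 26 had the lower mean, 5 lay below without overlap (14.3%, under the 19.2% of all genes) and 2 above, and the median was -0.24, or 0.022 with the beta-actin covariate and -0.099 without DSW1200 replicate 1. *Keap1*, the repressor of Nrf2, gave 98.5 and 145 in TW and 70.0 and 88.8 in DSW1200 (log2 change -0.60, SE 0.23, adjusted p 0.617), but its change was 0.49 with its probe sets averaged. The other probe set in that average was below the level tested, at 0.4875 and 0.8375 in TW and 4.725 and 1.9125 in DSW1200. *Akr7a3*, an aldehyde reductase, gave 2322 and 2981 in TW and 1207 and 2198 in DSW1200 (log2 change -0.69, SE 0.28, adjusted p 0.617), and *Nqo1*, a quinone reductase, overlapped at 149.9 and 177 in TW and 67.9 and 219.8 in DSW1200. Xenobiotic enzymes had a median of -0.086, with 7 of 34 above (20.6%) and 5 below (14.7%). *Aldh3a2*, a fatty aldehyde dehydrogenase, gave 445 and 414 in TW and 292 and 298 in DSW1200 (log2 change -0.54, SE 0.15, adjusted p 0.617), with WR as low (259 and 249) and SeW higher than TW (514 and 564), and *Ces2c*, a carboxylesterase, gave 271 and 316 in TW and 174 and 193 in DSW1200 (log2 change -0.67, SE 0.19, adjusted p 0.617). Among 35 tested antioxidant enzymes 3 lay above and 9 below (25.7%), and *Sesn2*, a stress-induced sestrin, gave 182 and 201 in TW and 132 and 116 in DSW1200 (log2 change -0.63, SE 0.18, adjusted p 0.617). Selenoprotein genes were even, with 4 above and 4 below among 25.

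Death, repair and stress genes lay on both sides of TW. Pro-apoptotic genes had 4 of 30 above and 3 below, anti-apoptotic genes 4 of 17 above and 3 below, and DNA repair genes 4 of 27 above and 3 below. In the unfolded protein and heat shock list 5 of 35 lay above and 4 below (median -0.032), with *Hspa4*, an exchange factor of the Hsp70 family, at 8.20 and 11.1 in TW and 22.1 and 22.9 in DSW1200 (log2 change 1.24, SE 0.35, adjusted p 0.617). Of 33 immediate early and stress kinase genes 4 lay above and 3 below. *Dusp6*, a phosphatase of ERK, gave 480.1 and 393 in TW and 1129 and 650.5 in DSW1200 (log2 change 0.98, SE 0.33, adjusted p 0.617) and *Jund*, an AP-1 subunit, 1118 and 937 in TW and 686 and 858 in DSW1200 (log2 change -0.42, SE 0.17, adjusted p 0.617). By PCR arrays, another assay, the study listed 20 oxidative stress genes for DSW1200, all higher than in TW. It also listed 10 apoptosis genes, most of them lower. On the arrays used here, of 12 tested for oxidative stress 1 lay above (8.33%) and 2 below (16.7%) without overlap. Of 8 for apoptosis 2 lay above (25%) and 0 below, beside 16.6% and 19.2% of all genes. These 2 were *Api5*, listed by the study as lower, and *Mcl1*, listed as higher. Of the 12, 6 had the higher mean and 6 the lower. *Txnrd1* and *Txnip*, both listed as higher, had log2 changes of -0.13, with overlap, and -0.77. The study's separate measurements of *bad* and *bax* mRNA and of Txnrd1, Bcl-2 and Bax protein were not compared here. The PCR array lists come from the same study and are no independent evidence.

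Barrier genes were found on both sides of TW. Among 29 tested junction genes 5 lay above and 5 below (median 0.056). *Cdh1*, E-cadherin, gave 1523 and 1445 in TW and 1844 and 1476 in DSW1200 and *Ocln*, occludin, 511 and 373 in TW and 519 and 400.2 in DSW1200, both with overlap (a second probe set of *Ocln* had a log2 change of -0.44), and *Cxadr*, an adhesion protein of the tight junction, gave 70.5 and 34.5 in TW and 77.6 and 81.6 in DSW1200 (log2 change 0.69, SE 0.30, adjusted p 0.617). Innate immune genes had 2 of 32 above and 4 below (median -0.11). *Reg3b* and *Reg3g*, bactericidal lectins, differed widely between the DSW1200 replicates, at 3656 and 431 for *Reg3b* and 1673 and 199 for *Reg3g*. *Psmb9*, an immunoproteasome subunit, gave 1012 and 880.2 in TW and 698 and 658 in DSW1200 (log2 change -0.48, SE 0.17, adjusted p 0.617). Genes of prostaglandins and mucosal protection had 3 of 20 above and 2 below, and 14 had the higher mean. Their median was 0.16, or -0.018 against TW replicate 1 and 0.21 against TW replicate 2. The largest change was that of *Ptges*, a dim gene, at 2.36 and 7.44 in TW and 16.8 and 13.2 in DSW1200 (log2 change 1.83).

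Cell cycle genes lay above TW as a list, with 5 members, among them the replication factor *Pcna* and *Tyms*, going the other way. *Tyms* was the lowest member, with a log2 change of -1.50. The DSW1200 mean of *Tyms* lay -1.60 from TW replicate 1 and -1.40 from TW replicate 2. Of 46 listed genes 30 were tested: 25 had the higher mean in DSW1200, 12 of them without overlap (40.0%, against 16.6% of all genes) and 2 lay below, with a median of 0.46, or 0.15 with an offset of 32 before log2. Most of these are dim, with a median signal of 14.0, and below-threshold members could not be tested. *Rrm1*, a ribonucleotide reductase subunit, gave 31.3 and 37.4 in TW and 50.3 and 64.6 in DSW1200 (log2 change 0.74, SE 0.27, adjusted p 0.617). *Mcm7*, of the replicative helicase, gave 17.9 and 7.44 in TW and 26.8 and 19.6 in DSW1200 (log2 change 0.99, SE 0.42, adjusted p 0.617) and *Top2a*, topoisomerase II, 8.64 and 9.0 in TW and 20.4 and 14.4 in DSW1200 (log2 change 0.96, SE 0.42, adjusted p 0.617), and for both genes the WR and SeW means were higher than that of DSW1200. *Mki67*, the classical proliferation marker, overlapped at 28.5 and 22.9 in TW and 27.8 and 27.8 in DSW1200, and *Pcna*, the sliding clamp of DNA polymerase, gave 523 and 369.9 in TW and 263 and 242 in DSW1200 (log2 change -0.80, SE 0.21, adjusted p 0.617), the DSW1200 arrays being the lowest of all 8.

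The list was above each TW array: its median was 0.34 against TW replicate 1 and 0.46 against TW replicate 2, and with the beta-actin ratio as a covariate it was 0.0085. Against the other groups the list lay lower in DSW1200, with a median of -0.33 for DSW1200 minus WR and -0.41 for DSW1200 minus SeW. The plot of list members against each TW array sets it beside the respiratory chain, fatty acid oxidation and ribosomal protein lists.

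**Figure D5:**
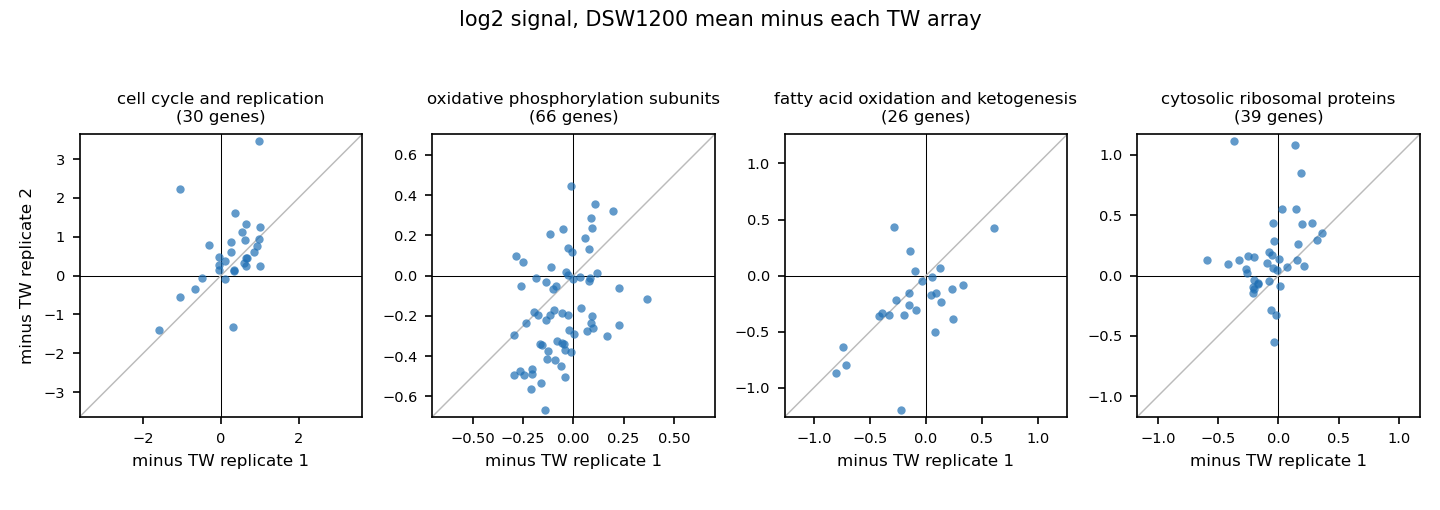
Log2 signal of the DSW1200 mean minus TW replicate 1 (horizontal axis) and minus TW replicate 2 (vertical axis), 1 point per tested member of 4 lists, with the diagonal of equal change in grey and axes scaled for each list. Points in the upper right lie above both TW arrays and those in the lower left below both. The cell cycle genes gather in the upper right, and the respiratory chain genes reach further down against TW replicate 2 than to the left against TW replicate 1.

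Markers of the epithelial lineages lay on both sides of TW. Goblet cell markers had 1 of 13 above (7.69%) and 4 below (30.8%, against 19.2% of all genes, median -0.052), with *Muc2*, the secreted mucin, at 2675 and 3015 in TW and 2485 and 2227 in DSW1200. Enteroendocrine markers had 1 of 13 above and 0 below, with *Cck* at 222 and 282 in TW and 189.9 and 253 in DSW1200 and *Gip* at 373 and 314 in TW and 344 and 288 in DSW1200, both hormones of the upper gut. Tuft cell markers had 0 of 6 without overlap, crypt and Wnt markers 3 of 10 above (30.0%, against 16.6% of all genes) and 0 below, and Paneth cell markers 1 of 4 above and 1 below. Enterocyte transcription factors had 4 of 21 above and 1 below (median -0.050), with *Klf5*, a factor of crypt cells, at 987 and 483 in TW and 1072 and 1072 in DSW1200 (log2 change 0.63, SE 0.27, adjusted p 0.617), and its 3 other tested probe sets had log2 changes of 0.36, 0.51 and -0.037.

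Markers of other cells were mostly dim, and none of the lists had more than 3 members above or 4 below without overlap. T and cytotoxic lymphocyte markers had a median of 0.16, with 2 of 18 above and 0 below. *Ptprc*, the pan-leukocyte antigen CD45, gave 53.2 and 21.6 in TW and 38.8 and 49.2 in DSW1200, with overlap and TW replicate 2 the lowest, and the T cell genes *Cd3e* and *Cd8a* were below the level tested. Fibroblast and matrix markers had a median of 0.12, which was -0.30 without TW replicate 2 and 0.53 without TW replicate 1. B and plasma cell markers had 3 of 10 above (30.0%, against 16.6% of all genes) and 1 below, antigen presentation and myeloid markers 2 of 24 above and 2 below, and smooth muscle and nerve markers 3 of 10 above (30.0%) and 2 below (20.0%). Endothelial and blood markers had 1 of 14 above and 1 below, pancreatic markers 0 above and 4 of 10 below (40.0%, against 19.2% of all genes), gastric and Brunner gland markers 2 of 4 above (50.0%) and 0 below, and mast cell and eosinophil markers 0 of 2 without overlap. Of the gastric genes *Gast*, the hormone gastrin, gave 11.8 and 20.3 in TW and 33.2 and 34.1 in DSW1200 (log2 change 1.12, SE 0.41, adjusted p 0.617).

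Single arrays decided how many genes passed against TW. Without TW replicate 1, 124 genes passed as higher and 7 as lower by limma, the 7 being *Slc27a2*, *Scpep1*, *Pstpip2*, *Slc23a2*, *Pdk4*, *Ppp1r10* and *Flywch2*, and in that fit TW replicate 2 stands alone for TW and is assumed to vary like the other groups. Without TW replicate 2 no gene passed, and the smallest adjusted p was 0.0552. Without DSW1200 replicate 1, *Akr1c19*, an aldo-keto reductase, passed as higher and *Ephx2* as lower, and without DSW1200 replicate 2 the *Mir29c* probe set passed as lower.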

How the data were processed

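Epithelial RNA of 8 arrays in 4 groups of 2 (TW, WR, DSW1200 and SeW) was measured on Affymetrix Rat Genome 230 2.0 arrays. The authors deposited MAS5 intensity values per probe set on a linear scale, and no log2 values. The version of the MAS5 software was not given in the sources used here. Intensities were quantile normalized over the 8 arrays, floored at 1 and log2-transformed. Probe sets were named through the platform annotation and RefSeq, those with 1 symbol were kept, and each gene was represented by its probe set of highest mean log2 signal. A gene was tested, as 9258 of 14217 were, if its average signal exceeded 6.69, the middle value among the arrays' probe sets. Limma 3.58.1 in R 4.3.3 fitted the 4 groups together with an intensity trend, with Benjamini-Hochberg adjustment and a threshold of 0.05. The scripts were tested on simulated data. The 2 arrays a group limit the precision.

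The genes and lists were chosen with earlier results of these data known. Genes were named by the smallest p and the largest change in each direction and by the fixed lists, and the look at brighter genes was added after values were seen. The replicate numbers did not pair the arrays, the correlation of deviations between TW and DSW1200 being -0.034. Alternatives were the values as deposited, median centring, other filters and offsets, other rules for several probe sets, no trend, only the 4 arrays compared, a replicate block, the beta-actin ratio as a covariate, and each array left out. Promoter sequences are those of RefSeq on GRCr8. Python 3.11.15 was used with pandas 2.3.3, numpy 2.4.6 and matplotlib 3.10.9.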

Additional observations from a re-analysis of the deposited data

How the results depend on the processing

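The counts of genes past an adjusted p of 0.05 between DSW1200 and TW were 0 and 0 under every alternative that kept all arrays. Leaving out each array in turn gave 0 to 124 higher and 0 to 7 lower genes. Genes 2-fold higher and lower without overlap numbered 167 and 101 as reported, 168 and 50 on the values as deposited, so that the share of higher genes moved by over 10 percentage points, and 708 and 595 with no filter, 21 and 9 with the stricter filter, 8 and 5 with an offset of 32, and 227 and 175 with every probe set on its own. They numbered 227 to 575 higher and 205 to 365 lower on leaving out each TW or DSW1200 array, and 167 and 101 without any one WR or SeW array. With a replicate block, which was not the design since the numbers did not pair the arrays, 0 genes passed either way between DSW1200 and TW, and the count against SeW was 116.

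Against the mean of the other 3 groups, 12 genes passed on the values as deposited and 4 with every probe set on its own. With no filter, with a gene's probe sets averaged, without the intensity trend or with the beta-actin covariate 0 passed, and 0 to 7 on leaving out each array. Against WR, 2 passed as deposited, 1 each with median centring, the offset or every probe set, and 0 to 5 with an array left out. Against SeW the 252 genes became 3738 as deposited (7 higher and 3731 lower), 19 unfiltered, 141 with probe sets averaged, 1 without the trend, 0 with the beta-actin covariate and 3 to 436 with an array left out. The cause was not tested.

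List medians that moved by more than the replicate spread did so mostly with the beta-actin covariate, which gave 0.016 for brush border enzymes and structure, 0.13 for fat absorption and chylomicrons, 0.038 for fatty acid oxidation and ketogenesis, 0.022 for Nrf2 targets and glutathione transferases, -0.19 for unfolded protein and heat shock, -0.17 for goblet cell markers, 0.0085 for cell cycle and replication, 0.38 for cytotoxic and T lymphocyte markers and -0.37 for cytosolic ribosomal proteins. The median of cell cycle and replication was 0.35 with no filter on low values. The median of cell cycle and replication was 0.15 with offset of 32 before log2. With each array left out the medians ran from -0.14 to -0.070 for brush border enzymes and structure, 0.32 to 0.46 for cell cycle and replication, -0.068 to 0.27 for cytotoxic and T lymphocyte markers, -0.14 to -0.00050 for enterocyte transcription factors, -0.20 to 0.00044 for iron absorption, -0.11 to 0.10 for junctions, -0.075 to 0.33 for osmotic stress response and -0.028 to 0.26 for sugar, peptide and amino acid transport.

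Of 1961 values of 104 single genes 1882 kept their direction and side of the threshold, 16 passed only with an array left out, and 63, in 29 genes, changed sign. With the beta-actin covariate the sign turned for *Akr7a3* (0.094), *Apoa4* (0.066), *Aqp3* (-0.033), *Bco1* (-0.28), *Cck* (0.039), *Cdh1* (-0.0066), *Fabp2* (0.13), *Insig1* (1.15), *Mki67* (-0.40), *Nfat5* (-0.26), *Nqo1* (0.48), *Ocln* (-0.30), *Reg3g* (-0.41), *S100g* (0.011), *Slc40a1* (0.11), *Slc9a3* (-0.22), *Sqle* (0.97), *Trpm7* (-0.13) and *Tsc22d3* (0.23). With probe sets averaged the sign turned for *Atp2b1* (-0.065), *Keap1* (0.49), *Mrs2* (0.29), *Nfat5* (-0.24), *Ocln* (-0.19), *Ptprc* (-0.17) and *Trpm7* (-0.54). On the values as deposited the sign turned for *Cpt1a* (0.041), *Fabp2* (0.030), *Reg3b* (0.0040), *S100g* (0.040) and *Slc40a1* (0.025). Leave-one-out values ran from -0.36 to 0.027 for *Apoa1*, -0.030 to 0.11 for *Atp2b1*, -0.40 to 0.017 for *Cck*, -0.0069 to 0.31 for *Cdh1*, -0.15 to 0.066 for *Cpt1a*, -0.21 to 0.016 for *Fabp2*, -0.25 to 0.0088 for *Gip*, -0.98 to 0.52 for *Insig1*, -0.036 to 0.27 for *Mki67*, -0.18 to 0.73 for *Nfat5*, -1.26 to 0.43 for *Nqo1*, -0.17 to 0.29 for *Ocln*, -0.29 to 1.02 for *Ptprc*, -1.67 to 1.42 for *Reg3b*, -1.24 to 1.83 for *Reg3g*, -0.083 to 0.025 for *S100g*, -0.87 to 0.066 for *Slc11a2*, -0.20 to 0.17 for *Slc40a1*, -0.15 to 0.86 for *Slc9a3*, -1.05 to 0.61 for *Sqle*, -0.30 to 1.10 for *Trpm7*, -0.016 to 0.39 for *Trpv6* and -0.51 to 0.10 for *Tsc22d3*.

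The number of arrays, and for dim genes the signal over background, limits every comparison.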
